A study of Bubalus bubalis with 8 samples.

Results

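The collagen chains of buffalo mammary epithelial cells (MECs) were followed over 24 h after a heat shock. Every array probe whose gene name reads COL, a number, A and a number was taken as a member, which gave 111 probes for 35 genes among 43653 probes and 24839 gene names. A gene was kept when at least 1 probe was detected, that is, well above background in the scanner's own call, on at least 1 array. A total of 7 collagen probes lay in a region that was dark on the control array and were left out. Of the 104 probes outside it, 36 were detected, and they named 17 genes out of 11687 genes detected in the same way. These were 5 fibrillar chains (COL1A1, COL1A2, COL3A1, COL5A2 and COL27A1), 4 basement membrane chains (COL4A1, COL4A2, COL4A5 and COL4A6) and 8 others (COL6A1, COL6A2, COL7A1, COL9A3, COL12A1, COL17A1, COL18A1 and COL22A1). COL16A1 was detected only inside the dark region, and 17 genes were not detected on any array: 5 fibrillar, 1 of the basement membrane (COL4A3) and 11 others.

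Mammary tissue of 1 adult buffalo gave the primary culture, which was used at passage 10 in collagen treated wells. One set of wells stayed at 37 °C (CTR), and the other was held at 42 °C for 1 h, returned to 37 °C and trypsinized after a recovery of 30 min or of 2, 4, 8, 12, 16 or 24 h. Total RNA of each of the 8 conditions was hybridized to 1 array of 60 base bovine oligonucleotides, so no condition had a replicate and no difference below was tested. The labels describe female cells in every condition, and the harvest time of the CTR cells on the array is not stated in them.

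Collagens are built from 3 chains wound into a triple helix. Types I, III and V form the fibrils of connective tissue and are made mainly by fibroblasts, whereas type IV forms the sheet of the basement membrane on which epithelial cells sit. Types VII and XVII anchor the epithelium to that membrane, type XVIII lies within it, type VI forms beaded microfibrils, and types IX, XII and XXII associate with fibrils or tissue borders. In the endoplasmic reticulum (ER) the chains are hydroxylated and folded with the help of the chaperone HSP47, the product of SERPINH1, before export, propeptide removal and cross-linking.

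In the helix every residue in 3 is a glycine, whose codon starts with GG, so a stretch that codes for helix carries GG at every 9th base. The probes below are shown because they read helix sequence and because their detection divided the members, with the GG pairs of that frame in capitals. Positions are on the bovine build HGSC Btau_3.1. The COL4A1 probes A_73_P077601 (chr12:82999057-82999116, minus strand) and A_73_P108816 (chr12:82969811-82969870, minus strand) come first, the former detected on 4 arrays and the latter on none. A_73_P450934 for COL3A1 (chr2:7743600-7743659, minus strand) and A_73_P367886 for COL1A1 (chr19:37647299-37647502, plus strand, an interval longer than the probe) were each detected on 7 arrays. A_73_P358501 for COL1A1 (chr19:37646195-37646474, plus strand) and A_73_P368131 for COL1A2 (chr4:12047111-12047170, plus strand) were detected on none, and A_73_P458121 for COL9A3 (chr13:55245296-55245717, minus strand) was detected at 16 h alone.
COL4A1 A_73_P077601: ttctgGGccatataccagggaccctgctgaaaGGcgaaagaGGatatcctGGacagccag
COL4A1 A_73_P108816: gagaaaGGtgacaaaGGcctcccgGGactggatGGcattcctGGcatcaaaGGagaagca
COL3A1 A_73_P450934: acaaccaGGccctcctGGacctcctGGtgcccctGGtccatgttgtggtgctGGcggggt
COL1A1 A_73_P367886: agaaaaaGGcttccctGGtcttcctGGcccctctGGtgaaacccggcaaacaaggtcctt
COL1A1 A_73_P358501: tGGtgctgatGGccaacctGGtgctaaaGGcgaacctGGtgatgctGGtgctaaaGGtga
COL1A2 A_73_P368131: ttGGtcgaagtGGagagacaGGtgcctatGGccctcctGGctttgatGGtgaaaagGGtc
COL9A3 A_73_P458121: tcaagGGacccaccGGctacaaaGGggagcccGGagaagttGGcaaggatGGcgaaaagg
The repeat was complete in 4 of these, COL4A1 A_73_P108816, COL1A1 A_73_P358501, COL1A2 A_73_P368131 and COL9A3 A_73_P458121. It held 5 of 6 positions in the COL3A1 probe, 4 of 6 in COL1A1 A_73_P367886 and 4 of 6 in COL4A1 A_73_P077601. On the strand printed on the array, GG stood at 4 or more such positions in 19 of the 111 collagen probes, against 174 (0.399%) of all probes. Of the 18 collagen probes outside the dark region with the repeat 4 were detected (22.2%), and of the 86 without it 32 were (37.2%).

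A level is the log2 signal above the 75th percentile of its array. At 30 min it rests on the log2 values that the authors deposited, since the scanner intensities of that array departed from them over the whole surface. There a probe counted as detected from the highest detection floor of the other arrays, 0.24. Slide 1 carried CTR with the arrays of 8, 12 and 24 h, and slide 2 the arrays of 30 min and of 2, 4 and 16 h, so for the latter 4 heat and slide cannot be told apart when they are set against CTR. Detection covered 10113 to 17534 probes per array, with floors from 0.24 at 24 h down to -1.95 at 2 h. The spread between spots of the same probe gave a difference between an array and CTR an error of 0.28 (8 h) to 0.55 (16 h), an error of spots that leaves out the spread between cultures. For 30 min, where no spots of the deposited values could be compared, the spread of CTR stood in and gave 0.30, which was not measured on that array. A local shift is the median departure, from the other scanner arrays, of the bright probes within 10 spots of a probe, and it ran from -0.79 to 0.66 over the detected collagen probes and arrays. With the local shifts taken off each level, an alternative added after the data were seen that is not open to 30 min, the counts of 3-fold calls against CTR stayed the same, with the exchange of 1 gene at 4 h given below. Over the 7256 probes detected everywhere, 30 min and 2 h differed from each other with an SD of 0.31, the smallest of all pairs of arrays, whereas CTR differed from the slide 2 arrays with SDs of 0.78 to 0.90 and from the slide 1 arrays with 0.45 to 0.49. Of 12 epithelial markers 9, among them KRT5, KRT8, KRT14, CDH1 and EPCAM, were detected on all 8 arrays. KRT18 was detected at 2 h and 16 h and GRHL2 at 4 h alone, and neither was detected in CTR. KRT8 differed from CTR by -3.70 log2 at 30 min by its brightest probe. ACTA2 and TAGLN, markers of myoepithelium and smooth muscle, had levels of 7.41 and 7.44 in CTR, close to the 6.99 of KRT8.

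Most of the 36 detected collagen probes, 26 in all, fell into 3 patterns. The first set of 9 probes for 5 genes, COL4A6, COL5A2, COL7A1, COL17A1 and COL18A1, was detected on all 8 arrays (25.0% of the 36, against 40.1% of all 18090 detected probes). The second set of 4 probes, 3 for COL4A1 and 1 for COL4A2, was detected on all slide 1 arrays and neither at 30 min nor at 2 h (11.1% of the 36, against 0.409% of all). The last set of 13 probes for 7 genes was detected at 16 h and on no slide 1 array (36.1% of the 36, against 4.58% of all). Of these, 12 were also not detected at 30 min or 2 h (33.3% of the 36, against 1.64% of all). The other 10 probes, for 9 genes, followed none of the 3. Among them were the probes read for COL1A1, COL3A1, COL4A5, COL12A1, COL22A1 and COL27A1. By gene, slide 1 held 12 of the 17 chains in CTR, 13 at both 8 h and 12 h and 11 at 24 h, and slide 2 held 5 at 30 min, 12 at 2 h and 16 at both 4 h and 16 h.

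**Figure D1:**
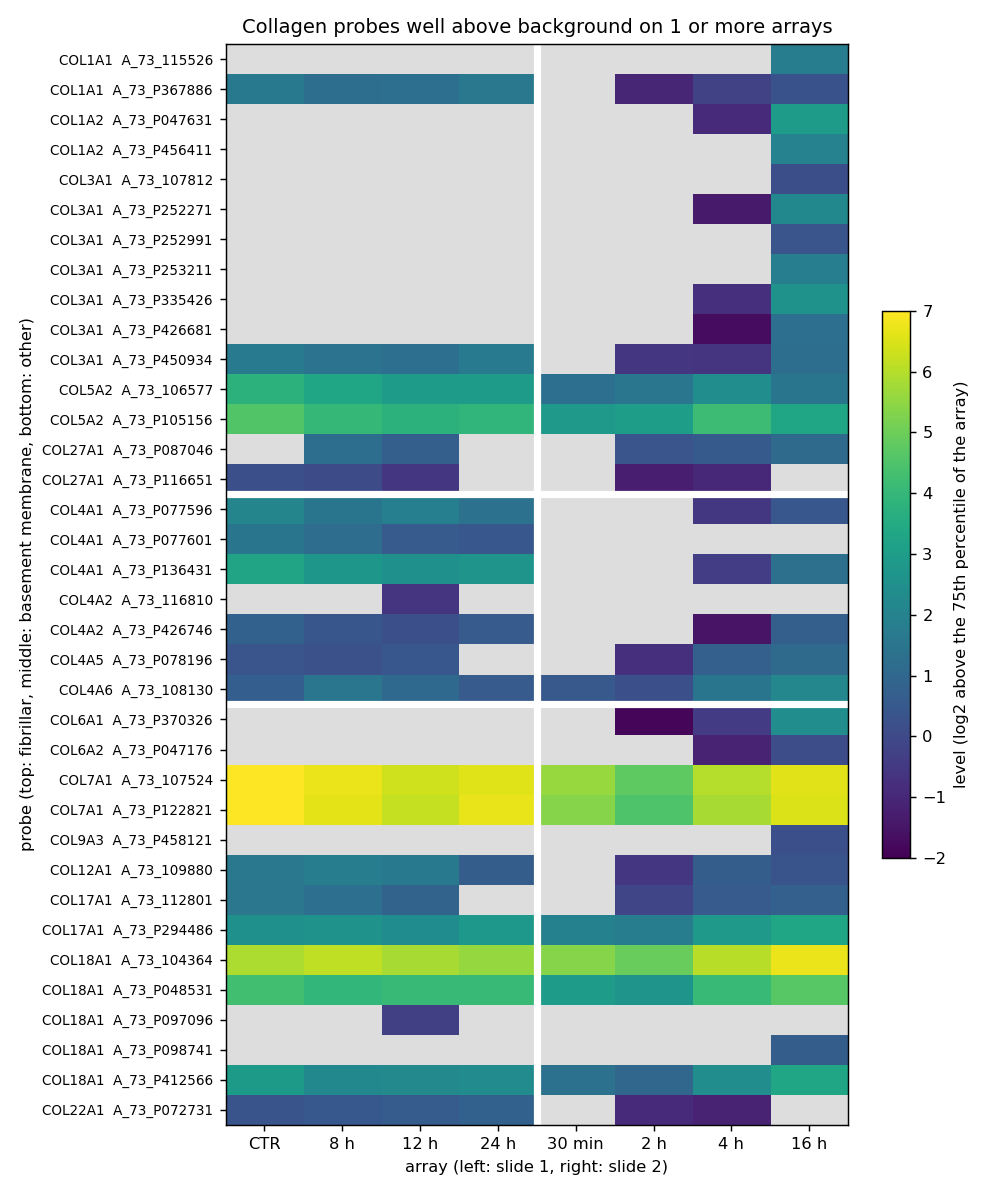
Levels (log2 above the 75th percentile of the array, colour scale) of the 36 detected collagen probes (rows, by class) on the 8 arrays (columns, 1 array each, slide 1 left and slide 2 right); grey cells were not detected. COL7A1 and COL18A1 A_73_104364 are coloured on every array, and the COL4A1 probes are grey at 30 min and 2 h. Most COL3A1, COL1A2 and COL6 probes are coloured at 16 h alone or at 4 h and 16 h alone.

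Of the anchoring and epithelial chains, COL7A1, the chain of the anchoring fibrils, had a level of 7.31 in CTR and 6.74, 6.35 and 6.56 on the later slide 1 arrays (8, 12 and 24 h), and on slide 2 5.61 (30 min), 4.76 (2 h), 5.99 (4 h) and 6.60 (16 h). Every heated array lay below CTR, and 2 h lay lowest. It was 3.24-fold lower at 30 min and 5.87-fold lower at 2 h. Within slide 1 it was 1.49-fold (8 h), 1.94-fold (12 h) and 1.68-fold (24 h) lower. The local shift around this probe was 0.53 in CTR, and with local shifts taken off the slide 1 differences were -0.14, -0.28 and -0.20, within the error of 0.28 to 0.37. The difference at 2 h was then -1.66, or 3.17-fold. The other COL7A1 probe overlaps this one almost fully (chr22:52520518-52520577 and chr22:52520521-52520577), and it differed from CTR by -2.84 (2 h) and -0.67 (24 h). By the scanner intensities of 30 min COL7A1 lay 1.14 log2 above CTR instead.

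COL17A1, a transmembrane collagen of the hemidesmosome, stayed within 3-fold of CTR at every time point by A_73_P294486, from -0.73 at 2 h to 0.82 at 16 h. Its other detected probe, A_73_112801, passed 3-fold at 2 h, with -1.70 (3.24-fold lower), and gave -0.98 at 4 h, -0.81 (16 h) and, not well above background at 24 h, -1.33, where A_73_P294486 gave 0.33, 0.82 and 0.28. COL18A1, the source of endostatin, ranged by the probe used from -0.98 at 2 h to 0.87 at 16 h. The 2 further COL18A1 probes detected on all arrays passed 3-fold at 2 h, A_73_P412566 at 3.84-fold lower and A_73_P048531 at 3.11-fold lower. For COL18A1 at 30 min, A_73_P412566 gave -1.55 and the probe used gave -0.51. COL12A1, a chain that binds fibril surfaces, was 4.55-fold lower at 2 h and 1.96-fold lower at 24 h. COL22A1, a chain of tissue junctions, was 2.35-fold lower at 2 h and 2.70-fold lower at 4 h, and at 16 h it was not well above background.

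Among the basement membrane chains, COL4A1 carried the largest difference of all 17 genes. Its level was 3.27 in CTR and 2.75, 2.51 and 2.66 on the later slide 1 arrays (8, 12 and 24 h), and on slide 2 -2.58 (30 min), -2.09 (2 h), -0.36 (4 h) and 1.31 (16 h). The 4 slide 2 arrays all lay below the 4 slide 1 arrays, and at 30 min and 2 h the probe was not well above background. COL4A1 was at least 8.18-fold lower than CTR at 30 min, at least 37.3-fold lower at 2 h, 12.4-fold lower at 4 h and 3.88-fold lower at 16 h. With local shifts taken off it was at least 24.9-fold lower at 2 h, 7.88-fold lower at 4 h and 4.74-fold lower at 16 h. On slide 1 it was 1.43-fold (8 h), 1.70-fold (12 h) and 1.52-fold (24 h) lower, and with local shifts taken off these differences were -0.23, -0.13 and -0.21, within the error. With the median of the slide 1 arrays as reference no collagen gene remained 3-fold lower at 16 h, COL4A1 included.

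At 30 min and 2 h the differences of COL4A1 are bounds set by floors of 0.24 and -1.95, so these time points have no order between them. A_73_P077596 (chr12:82952077-82952136) gave a bound of -4.04 at 2 h and a difference of -2.64 at 4 h. The helix probe A_73_P077601, from another site of the locus, gave bounds of -3.46 and -3.23. COL4A2, which pairs with COL4A1 in the most common type IV trimer and is its neighbour in the buffalo RefSeq table (assembly NDDB_SH_1), had a level of 0.79 in CTR and 0.41, 0.19 and 0.58 on the later slide 1 arrays (8, 12 and 24 h), and on slide 2 -3.50 (30 min), -4.27 (2 h), -1.52 (4 h) and 0.71 (16 h). Its probe was not well above background at 30 min and 2 h. COL4A2 was at least 6.69-fold lower than CTR at 2 h and 4.95-fold lower at 4 h, and at 16 h it was 1.06-fold lower, a difference within the error. With local shifts taken off, it was 1.51-fold lower at 16 h (-0.60), slightly beyond the error of 0.55.

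The X chromosomal pair COL4A5 and COL4A6, also neighbours in that table, followed another course. COL4A6 had a level of 0.67 in CTR and 1.52, 1.09 and 0.60 on the later slide 1 arrays (8, 12 and 24 h), and on slide 2 0.52 (30 min), 0.21 (2 h), 1.5 (4 h) and 2.18 (16 h). Its highest level was at 16 h, 2.83-fold above CTR, and no time point passed 3-fold. With local shifts taken off, the COL4A6 differences on slide 1 were 0.05 (8 h), -0.14 (12 h) and -0.37 (24 h). On slide 2 they were then -0.48 (2 h), 0.46 (4 h) and 1.40 (16 h). COL4A5 was 2.23-fold lower at 2 h and 1.68-fold higher at 16 h.

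Of the fibrillar chains, COL5A2, which helps to set fibril diameter, had a level of 4.55 in CTR and 3.98, 3.79 and 3.93 on the later slide 1 arrays (8, 12 and 24 h), and on slide 2 2.84 (30 min), 3.02 (2 h), 4.16 (4 h) and 3.34 (16 h). All heated arrays lay below CTR, by 3.28-fold at 30 min and 2.90-fold at 2 h. Its other probe, A_73_106577, gave 5.61-fold (30 min), 4.77-fold (2 h) and 4.85-fold (16 h) lower, so by that probe COL5A2 passed 3-fold at 2 h and 16 h as well. These folds include the local shift around A_73_106577, which was 0.19 in CTR and -0.65 at 16 h. The local shift around A_73_P105156 was 0.46 in CTR and -0.79 at 16 h, the lowest at any detected collagen probe. With local shifts taken off, the difference of A_73_P105156 was 0.01 (8 h), -0.12 (12 h), -0.25 (24 h) and 0.04 (16 h), each within the error, and at 2 h it was -1.11. By the scanner's own signals of 30 min COL5A2 lay 1.18 log2 above CTR. COL27A1 was not well above background in CTR by A_73_P087046 and at least 2.73-fold higher at 8 h, whereas A_73_P116651 was detected in CTR and gave -0.13 there and -1.46 at 2 h.

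COL1A1 and COL3A1 depended on which probe was read. The rule of using the probe detected on most arrays chose the 2 helix probes printed above. By A_73_P367886 the level of COL1A1 was 1.64 in CTR and 1.24, 1.30 and 1.60 on the later slide 1 arrays (8, 12 and 24 h), and on slide 2 -1.96 (30 min), -1.05 (2 h), -0.26 (4 h) and 0.26 (16 h). By A_73_P450934 the level of COL3A1 was 1.67 in CTR and 1.44, 1.29 and 1.76 on the later slide 1 arrays (8, 12 and 24 h), and on slide 2 -1.89 (30 min), -0.58 (2 h), -0.64 (4 h) and 1.26 (16 h). Both probes were higher on slide 1 than on any slide 2 array, for COL3A1 by a gap of 0.04 between 12 h and 16 h against an error of 0.55 at 16 h. COL1A1 was 6.46-fold and COL3A1 4.77-fold lower at 2 h than in CTR.

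Of the remaining probes, 3 for COL1A1 and 2 for COL3A1 were detected on no array, and the others showed the third pattern. COL1A1 A_73_115526 (chr19:37651511-37651570) was detected at 16 h alone, with a level of 1.77, at least 3.91-fold above CTR. For COL3A1, 6 further probes between chr2:7740107 and chr2:7742054 were detected at 16 h, and A_73_P252271, A_73_P335426 and A_73_P426681 also at 4 h, while none was detected in CTR. The brightest of them, A_73_P335426, was at least 6.83-fold above CTR at 16 h. In total COL3A1 had 9 probes outside the dark region, of which 7 were detected and 1 followed slide 1.

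COL1A2, the partner of COL1A1 in type I collagen, had no probe detected in CTR. By A_73_P047631 (chr4:12054392-12054451) it was detected at 4 h, with a level of -0.93, and at 16 h, with a level of 2.94, and was not well above background on the other 6 arrays. It was at least 8.80-fold higher at 16 h than in CTR and at least 4.55-fold higher by A_73_P456411, a probe whose site overlaps the former. COL6A1 was detected at 2 h with a level of -1.88, at 4 h with -0.39 and at 16 h with 2.41, at least 6.09-fold above CTR. COL6A2, the neighbour of COL6A1 and its partner in type VI collagen, was detected at 4 h with -1.11 and at 16 h with 0.13, and the helix probe of COL9A3 at 16 h with 0.21. For the last 2 genes the bound against CTR was under 3-fold, at 1.26 and 1.32, since the floor of the CTR array was -0.20. Below that floor, the own level in CTR was -1.87 for COL6A1 and -1.10 for COL6A2. Detection of COL6A1 at 2 h and of COL6A2 at 4 h thus rested on the lower floors there, -1.95 and -1.73, and was not read as a rise.

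**Figure D2:**
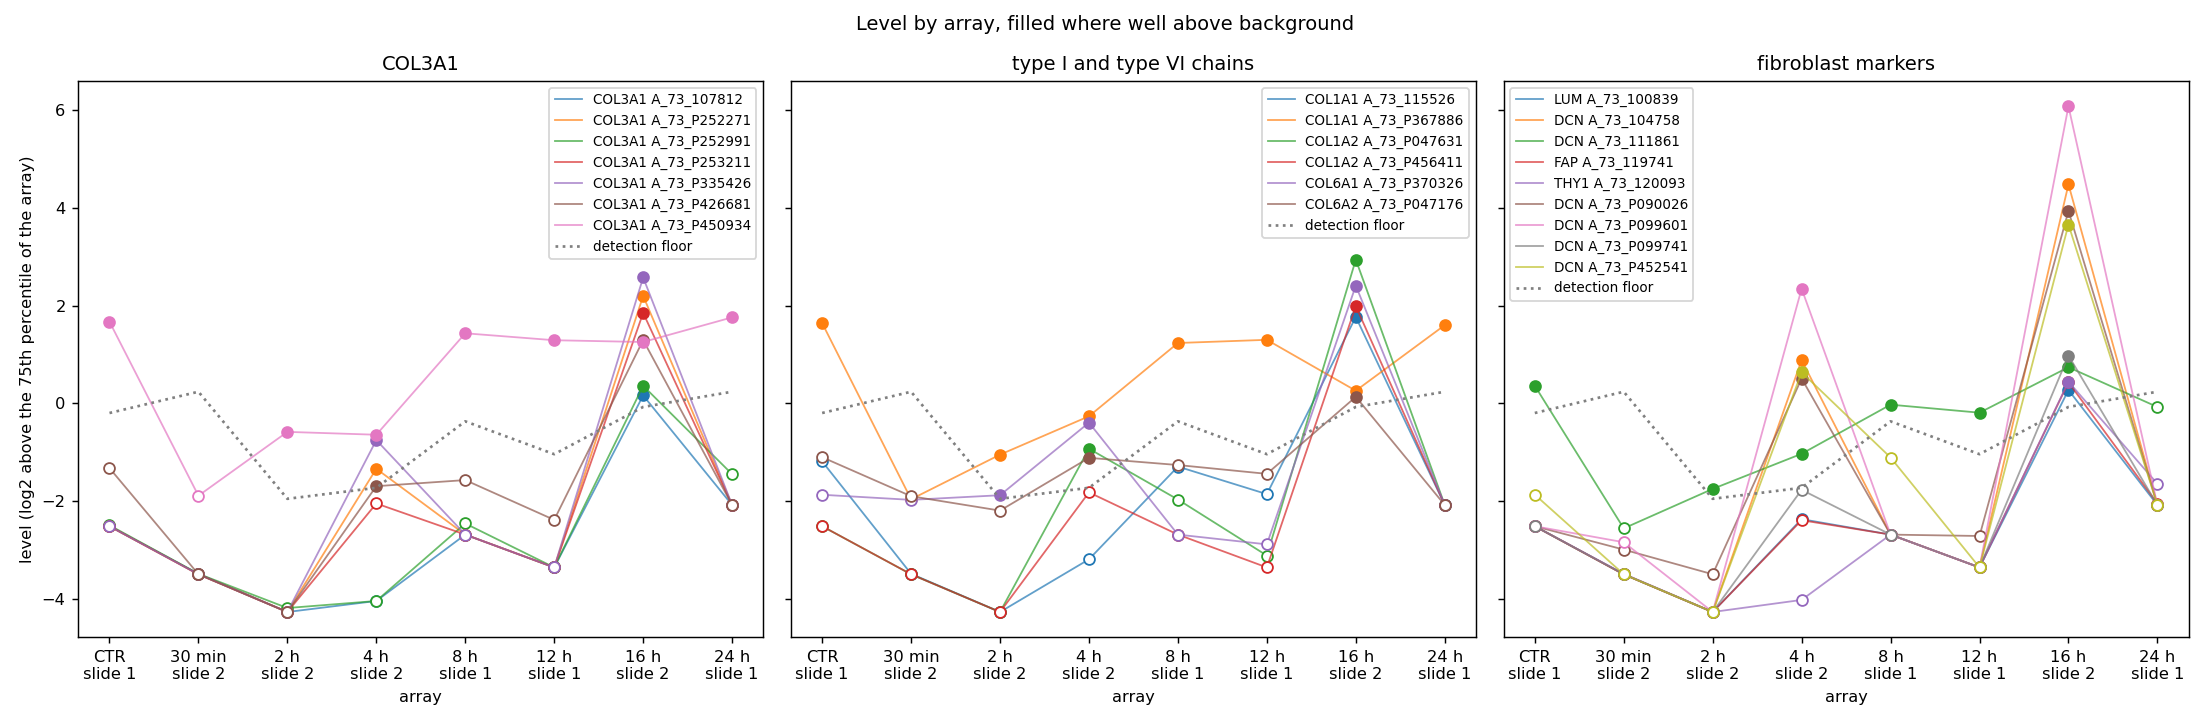
Level (log2 above the 75th percentile of the array, vertical) on each of the 8 arrays (horizontal, 1 array each) of the detected probes of COL3A1 (left), of COL1A1, COL1A2, COL6A1 and COL6A2 (middle) and of 4 fibroblast markers (right); filled points were well above background, open points were not, and the dotted line is the detection floor. COL3A1 A_73_P450934 and COL1A1 A_73_P367886 are filled in CTR, and the other COL3A1 and COL1A1 probes are filled at 16 h or at 4 h and 16 h alone, as are most DCN probes.

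Markers of other cell types were read on the same arrays, fibroblast markers first. Of 10 markers 6 were detected on some array, and all 6 at 16 h (DCN, DPT, FAP, LUM, PDGFRA and THY1), against 2 in CTR (DCN and DPT), while PDGFRB, FBLN1, TCF21 and MFAP5 were not detected anywhere. Their summed level took 1 probe per gene, the one detected on most arrays, which for DCN was A_73_111861. It was 1.36 to 1.93 on slide 1, and -0.14 (30 min), 0.08 (2 h), 0.90 (4 h) and 3.16 (16 h) on slide 2. The decorin (DCN) probe A_73_P099601, outside that sum, was dim in CTR and reached 2.35 at 4 h and 6.08 at 16 h. DCN A_73_111861 was detected in CTR at 0.36, was highest at 16 h (0.74) and was not well above background at 24 h. The DCN probes thus differed in where they were detected. Like COL3A1 A_73_P450934, DCN A_73_111861 was lower than CTR at 2 h (4.32-fold) and at 4 h (2.62-fold). DPT was 3.32-fold lower at 2 h. At 16 h DCN A_73_111861 lay above the slide 1 arrays and COL3A1 A_73_P450934 below them, the latter by 0.04 against an error of 0.55. Endothelial markers were detected at 16 h too, 3 of 7 (PECAM1, VWF and CLDN5), against 0 in CTR. Leukocyte markers numbered 6 of 6 at 30 min and 2 h, 5 at 16 h and 2 in CTR. Their summed level was 7.39 (30 min), 7.07 (2 h) and 5.74 (16 h), against 5.78 in CTR. The pericyte list had a summed level of 0.93 both in CTR and at 16 h. The adipocyte list had 0.57 in CTR, 4.30 at 4 h and 3.885 at 16 h. Of the myoepithelial and smooth muscle markers 5 of 6 were detected at 4 h and 16 h, against 2 in CTR, and MYH11 and CNN1 were detected at 4 h and 16 h alone. The summed level of that list was 8.43 in CTR and 7.31 to 7.86 on the other slide 1 arrays, and 6.10 (30 min), 5.92 (2 h), 7.08 (4 h) and 7.80 (16 h). Within it ACTA2 was 4.50-fold and TAGLN 7.78-fold lower than CTR at 2 h. The part that RNA of other cells had in the collagen values was not tested, and in bulk RNA fewer cells of a type and less RNA per cell cannot be told apart.

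Counted by the 3-fold rule, with 1 probe per gene and genes detected on at least 1 of the arrays compared, the lower calls lay at the early time points. At 30 min 3 of 12 genes were at least 3-fold lower than CTR (COL4A1, COL5A2 and COL7A1), against 4.26% of all genes. At 2 h it was 6 of 14 (COL1A1, COL3A1, COL4A1, COL4A2, COL7A1 and COL12A1), against 7.85%, and at 4 h 4 of 16 (COL1A1, COL3A1, COL4A1 and COL4A2), against 5.08%. At 16 h COL4A1 was the sole lower gene of 17, against 3.79%. The 4 h count was 1 when the median of all probes set the scale of the array. It was 2 when each gene was read by its probe with the highest level, which removes COL1A1 and COL3A1. Those probes, A_73_115526 and A_73_P335426, were not well above background in CTR or at 2 h. That reading therefore removes COL1A1 and COL3A1 from the 2 h calls as well. With local shifts taken off, COL1A1 was 2.64-fold lower at 4 h and COL22A1 3.59-fold, so COL22A1 took its place in the count.

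No collagen gene was at least 3-fold higher at 30 min (6.91% of all genes), 2 h (4.92%) or 4 h (2.54%). At 16 h COL1A2 and COL6A1 were higher, 2 of 17, against 5.3%. Reading each gene by its probe with the highest level added COL1A1 and COL3A1 and gave 4. On slide 1 no collagen gene passed 3-fold in either direction. The shares over all genes there were 0.135% lower and 0.515% higher (8 h), 0.489% and 0.111% (12 h), and 0.507% and 0.104% (24 h).

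The median difference from CTR over the collagens, with a dim probe taken at its bound, was -0.15 (8 h, 13 genes), -0.16 (12 h, 13 genes) and -0.17 (24 h, 12 genes) on slide 1, where all genes had -0.09, -0.19 and -0.10. On slide 2 it was -0.97 (30 min, 12 genes), -1.39 (2 h, 14 genes), -0.19 (4 h, 16 genes) and 0.33 (16 h, 17 genes), where all genes had -0.12 and then 0.00 each time. COL1A2, COL6A1, COL6A2, COL9A3 and COL27A1 were dim in CTR, so they could not enter as falls. None of them entered at 30 min, all did at 16 h, and the 16 h median was the bound of COL6A2. The course of the median is thus partly set by which genes entered. By these medians the collagens differed from all genes by -0.86 at 30 min and -1.39 at 2 h, and by -0.07 to 0.02 at 8, 12 and 24 h. The 0.00 of all genes is the value given to a bound under 1-fold, so at 2 h the reference was set by that rule. With the median of all probes as the scale, all genes lay at 0.27 (2 h) and 0.85 (4 h), and the collagens differed from them by -0.95 and -0.58. By class, the median at 2 h was -1.90 over 4 fibrillar, -1.95 over 4 basement membrane and -1.11 over 6 other chains. At 16 h it was -0.42 over 5 fibrillar, 0.33 over 4 basement membrane and 0.37 over 8 other chains. The fibrillar median at 16 h was the COL3A1 value by A_73_P450934 and depended on the probe read. By A_73_P335426 COL3A1 was at least 2.77 above CTR, and by A_73_115526 COL1A1 was at least 1.97 above.

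**Figure D3:**
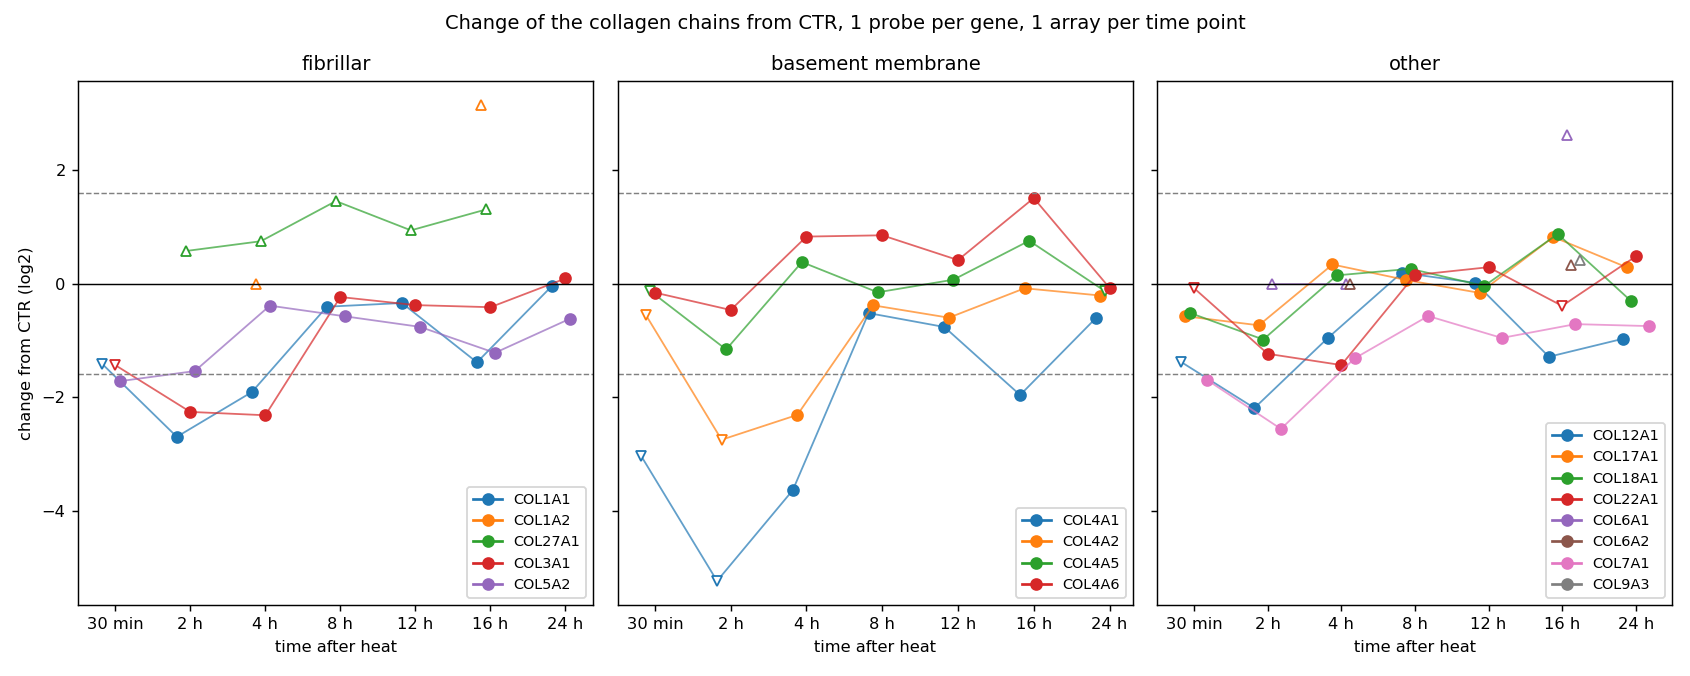
Difference from CTR (log2, vertical) of the 17 collagen genes at the 7 time points (horizontal, 1 array each), in 3 panels by class; filled circles were detected on both arrays, open triangles are bounds with a probe not well above background on 1 of them, and dashed lines mark 3-fold. The 30 min and 2 h values of COL4A1 and COL4A2 are bounds set by the floors, the values at 8, 12 and 24 h lie between the dashed lines, and COL1A2 and COL6A1 lie above them at 16 h.

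Comparing the levels within slide 2 removes the difference between slides. From 2 h to 16 h, 11 of 17 collagen genes were at least 3-fold higher and 0 lower, against 6.01% and 3.65% of all genes. COL1A2 led with at least 4.89 log2, followed by COL6A1 (4.29), COL4A1 (at least 3.27) and COL4A2 (at least 2.66). The detection pattern of COL4A1 and COL4A2 required no detection at 2 h, and that of COL1A2, COL6A1, COL6A2 and COL9A3 required detection at 16 h. A rise from 2 h to 16 h is thus partly built into these patterns and was not read as a result about them. The count of 11 genes depended on the processing. It was 4 with the median of all probes, 5 with normexp background correction and 6 with local shifts taken off. From 4 h to 16 h, 6 of 17 were higher and 0 lower (3.88% and 1.02% of all genes), with COL1A2 at 3.87 and COL6A1 at 2.80. The others were COL3A1, COL4A1, COL4A2 and COL9A3. COL9A3 was detected at 16 h alone and COL1A2 at 4 h and 16 h alone, so these rises are partly built in as well. From 30 min to 16 h, 3 of 16 were higher and 0 lower (3.92% and 5.77%), and from 2 h to 4 h, COL4A1 alone of 16 was higher, by at least 1.60, and 0 lower (1.79% and 6.17%). Between 30 min and 2 h 0 of 12 passed 3-fold in either direction, where 0.143% of all genes were lower and 0.0954% higher at 2 h.

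All 4 slide 2 levels lay below all 4 slide 1 levels, with dim probes at their floor, for 4 of 17 collagen genes (COL1A1, COL3A1, COL4A1 and COL22A1), against 8.35% of all genes. For COL3A1 this rested on a gap of 0.04 between 12 h and 16 h, against an error of 0.55 at 16 h. No collagen gene lay above on slide 2, against 6.97%. The count was 2 with the probe of the highest level per gene and 1 with the 30 min scanner intensities.

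The genes that fold and process collagen were read from lists of 51 names, 44 of them on the array and 29 detected. SERPINH1, the collagen chaperone, had a level of 2.12 in CTR and 2.52, 1.79 and 1.78 on the later slide 1 arrays (8, 12 and 24 h), and on slide 2 -0.69 (30 min), -0.67 (2 h), 0.00 (4 h) and 1.24 (16 h). It was low on the arrays where COL4A1 was low, 6.92-fold below CTR at 2 h and 4.36-fold below at 4 h. PLOD2, a lysyl hydroxylase, had a level of 2.30 in CTR and 1.48, 0.91 and 1.72 on the later slide 1 arrays (8, 12 and 24 h), and on slide 2 0.04 (30 min), -0.76 (2 h), -0.27 (4 h) and -1.65 (16 h). PLOD2 was the one gene of these lists at least 3-fold lower on every slide 2 array, by 8.35-fold at 2 h and by at least 5.17-fold at 16 h.

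The prolyl hydroxylase subunit P4HA2 was 3.04-fold lower at 2 h, and P4HA1 was detected in CTR alone, at a level of -0.16, and was at least 3.47-fold lower at 2 h. Their partner P4HB, which also works as a general disulfide isomerase, lay between -0.15 and 0.75 of CTR. Of the folding list 2 of 12 genes were 3-fold lower at 30 min (4.26% of all genes), 6 of 14 at 2 h (7.85%), 2 of 14 at 4 h (5.08%) and 1 of 13 at 16 h (3.79%), and 0 were higher. Of the export list, the COPII coat subunit SEC23A was lower at 4 h, 1 of 6, and SEC13 had a median of 0.45 over the time points, with at most 1.86-fold at 8 h.

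Among the genes that act outside the cell, PCOLCE, an enhancer of propeptide removal, was at least 3.47-fold higher at 30 min and at least 3.63-fold higher at 2 h, and the cross-linking enzyme LOXL4 was at least 5.95-fold higher at 2 h. LOXL2 was lower, with differences of -1.82 at 30 min and -2.10 at 2 h. LOX and BMP1, the main cross-linking enzyme and the main C-propeptide protease, were not detected on any array. ITGB1, the shared subunit of the collagen binding integrins, was 3.75-fold lower at 30 min and 3.98-fold lower at 2 h, and the endocytic collagen receptor MRC2 was 5.19-fold lower at 2 h and 1.57-fold higher at 16 h. Over all 5 lists, 4 of 24 genes were lower and 1 higher at 30 min, where 4.26% and 6.91% of all genes were, and 9 lower and 2 higher of 27 at 2 h, against 7.85% and 4.92%. At 4 h it was 3 lower and 0 higher of 28, against 5.08% and 2.54%, and at 16 h 1 lower and 0 higher of 27, against 3.79% and 5.3%. None passed 3-fold at 8, 12 or 24 h.

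**Figure D4:**
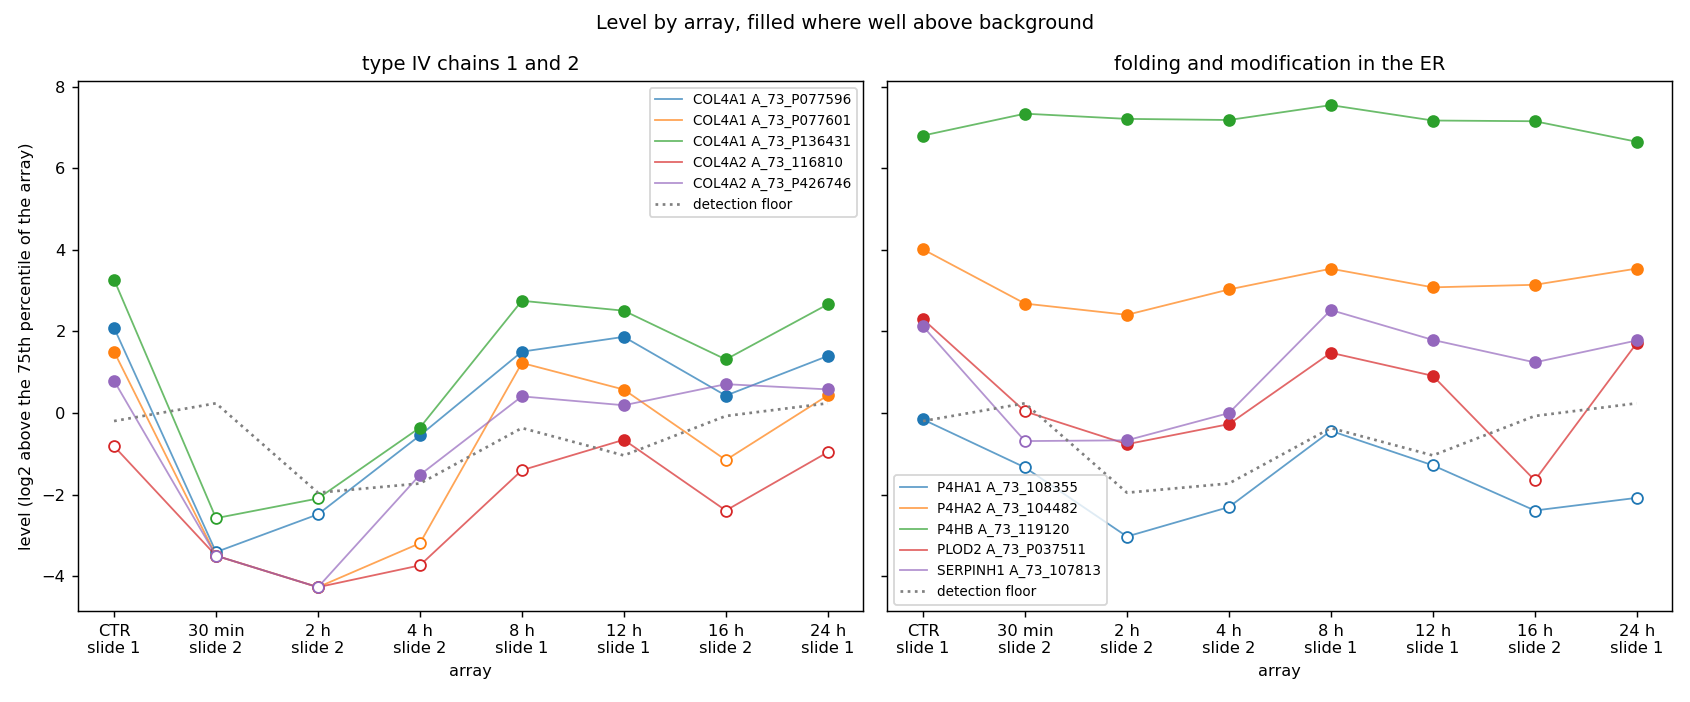
Level (log2 above the 75th percentile of the array, vertical) on each of the 8 arrays (horizontal, 1 array each) of the detected probes of COL4A1 and COL4A2 (left) and of 5 genes of collagen folding and modification (right); filled points were well above background, open points were not, and the dotted line is the detection floor. COL4A1 A_73_P136431 drops from 3.27 in CTR to -2.09 at 2 h and is at 2.75 at 8 h, SERPINH1 and PLOD2 are also low on these early slide 2 arrays, and P4HB stays above 6.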

How the data were processed

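RNA of 8 conditions was hybridized to 1 bovine 4x44K oligonucleotide array each. Per the file headers, the authors extracted spot intensities with Feature Extraction 9.5.3.1. The deposited log2 values were scaled to the 75th percentile in GeneSpring GX by the authors and have a median of 0 for each probe over the arrays. Here log2 of the processed intensity minus the 75th percentile of the array was used, and for 30 min the deposited log2 values, brought to the same scale by each probe's median offset on the other arrays. Outlier-marked and control spots were left out. A gene was read by the probe detected on most arrays, ties by mean level. A dim probe was taken at the higher of its own level and the lowest level of detected probes on that array, and a bound under 1-fold as 0. A call needed 3-fold, as in the study. Genes named with all values were COL4A1, those detected in CTR and 3-fold off at 2 or more time points, and the highest of each class. Fibrillar, basement membrane, processing and marker lists and the members were chosen with earlier results of these data known. Probes and replicate-free calls carry no p-value. The 3-fold rule was tested on simulated data. limma 3.58.1 (normexp, offset 50), Python 3.11.15 and pandas 2.3.3 were used. Of the 35 gene names 34 matched the RefSeq table of assembly NDDB_SH_1.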

Additional observations from a re-analysis of the deposited data

Results flagged for a closer look

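Signal was present in 3 collagen probes of the region that was dark in CTR, which entered no comparison, above the level or floor of CTR. COL16A1 A_73_104071 reached 4.56 at 16 h and 3.76 in CTR, and was detected on all 8 arrays. The median shift of bright probes around it was -0.84 log2 in CTR and 0.16 at 16 h, a gap larger than that between its own levels. COL27A1 A_73_104906 reached 1.16 at 8 h, and COL3A1 A_73_P427566 reached 0.37 at 16 h, the one array on which it was detected. Around the latter 2 probes the median shift of bright probes in CTR was -2.17 and -2.23 log2, so their CTR values were not read.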

How the results depend on the processing

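With 1 array per condition the number of arrays limits the precision, and none could be left out. No paired analysis was possible because each condition has 1 array. Of 305 recomputed collagen medians and counts, 264 stayed within the error of a difference, or within 1.5 times the count. Of 761 such values for single genes, the basement membrane class and the processing genes, 616 stayed, 143 shifted and 2 reversed. The collagen median at 30 min was 0.40 with the 30 min scanner intensities, -0.57 for genes detected on all 8 arrays and also with the dark region kept, -1.74 with the own level of dim probes, -0.61 with the slide 1 median as reference and -0.56 with the probe of the highest level. In the 30 min scanner intensities COL5A2 (1.18) and COL7A1 (1.14) reversed, and 1 gene was 3-fold higher. At 2 h the median was -0.72 with normexp, -0.68 with the median of all probes as scale and -0.98 for genes detected on all arrays. The median scale also gave 0.27 at 4 h and -0.61 at 24 h, and normexp gave 0.24 at 12 h.

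The count of genes 3-fold lower at 30 min was 8 with the own level of dim probes, 6 at a 2-fold threshold and 1 with the slide 1 reference, and at 2 h it was 1 for genes detected on all arrays. At 4 h it was 1 with normexp, 1 with the median scale, 0 for genes detected on all arrays and 2 with the probe of the highest level. At 16 h it was 0 with normexp, with the slide 1 reference and for genes detected on all arrays, 2 with the mean over probes and 4 at 2-fold. Genes 3-fold higher numbered 2 with the median scale and 1 with own levels at 4 h, 1 at 8 h with the median scale, with own levels and at 2-fold, and at 16 h 0 for genes detected on all arrays, 4 at 2-fold and 4 with the probe of the highest level. Genes with slide 2 below slide 1 numbered 1 with the scanner intensities, 0 for genes detected on all arrays and 2 with the probe of the highest level, and genes 3-fold higher at 16 h than at 2 h numbered 5 with normexp, 4 with the median scale, 6 with local shifts taken off and 3 for genes detected on all arrays. The cause of these shifts was not tested. Reading each gene by its probe of the highest level, taking off local shifts, and counting rises, were chosen after the data were seen. The remaining alternatives were quantile scaling, a percentile over bright probes, deposited log2 values throughout and outlier spots kept, which shifted none of these collagen medians and counts. Adding COL7A1 and COL18A1 to the basement membrane class shifted its 4 h median from -0.96 to -0.59.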
